A study of Mus musculus with 24 samples.

Results

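The Hox genes of the mouse carotid artery are described here. Members were the rows of the gene count tables whose Ensembl identifier maps, in the GENCODE M21 annotation, to a protein-coding symbol made of Hox, a letter from a to d and a number from 1 to 13. The rule found 39 genes among the 55421 in the tables, 11 in the HoxA cluster on chromosome 6, 10 in HoxB on chromosome 11, 9 in HoxC on chromosome 15 and 9 in HoxD on chromosome 2 (build mm10, equal to GRCm38). RNA was sequenced from uninjured carotid arteries of ovariectomized C57BL/6 female mice that carried no engineered allele according to the labels, with 6 libraries in each of 4 groups and a separate animal number for each library. OVX mice received placebo, E2 mice estradiol, the main natural estrogen, TAM mice tamoxifen, a selective modulator of the estrogen receptor, and E4 libraries are titled after estetrol, an estrogen of the fetal liver. The treatment field of the E4 libraries reads placebo, and their group was taken from the titles. The labels give an age of 9 weeks and 3 weeks of treatment for every library, whereas the study's text describes a shorter treatment. Whole arteries were extracted, so that every value is a mixture of the cells of the wall and of tissue attached to it.

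Hox genes encode homeodomain transcription factors that give cells a position along the body axis. Within each cluster the genes stand in the order in which they act from head to tail, and the paralog number follows that order: low numbers serve the hindbrain, neck and pharyngeal arches, high numbers the lumbar, tail and limb regions. Retinoic acid opens the low-numbered end in the embryo, Polycomb proteins keep the rest closed, and adult cells, smooth muscle of different arteries among them, hold on to the code of the place where they arose. The common carotid artery forms from the third pharyngeal arch artery, whose muscle comes from the neural crest of the caudal hindbrain.

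Library totals ran from 24647246 counts in an E4 library to 64221401 in an OVX library, with a median of 45156106. The labelled tissue held its markers: all 6 smooth muscle, all 6 endothelial and all 6 fibroblast markers were above 3 counts in each of the 24 libraries. OVX C5 and TAM C35 stood apart. They held 33.8 and 135 CPM (counts scaled to an equal library total) summed over 12 markers of sympathetic ganglion neurons such as Th and Dbh, which make noradrenaline, while the other 22 libraries held 1129 to 4402. All 12 of these markers were above 3 counts in every library, and none was at 0 in all. One E4 library carried 3026 CPM of 9 thyroid and parathyroid markers, and the highest T cell sum, 257 CPM of 6 markers, was in an E2 library. Some results are therefore given with and without OVX C5 and TAM C35, and the others include them unless stated.

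Transcription of the Hox clusters was concentrated at the low-numbered end (the plot of levels by paralog number). Levels are in RPKM, CPM scaled by the TMM method and divided by the kilobases of merged exons, and a gene was taken as detected in a library above 3 counts. The 15 genes with numbers 1 to 5 held 87.4% of the summed mean RPKM of all members, the 12 genes with numbers 6 to 9 held 12.3%, and the 12 genes with numbers 10 to 13 held 0.302%. Of the first class 12 were detected in every library, of the second 4, and of the last none. In total 16 members were detected in all 24 libraries, 11 in some and 12 in no library. No read at all was counted for 8 members, Hoxa11, Hoxa13, Hoxc10, Hoxc11, Hoxc12, Hoxc13, Hoxd11 and Hoxd12. These include genes that pattern the distal limb and the urogenital tract. For such a gene the floor of 3 counts applies, and a lower level was not detectable at this depth.

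**Figure D1:**
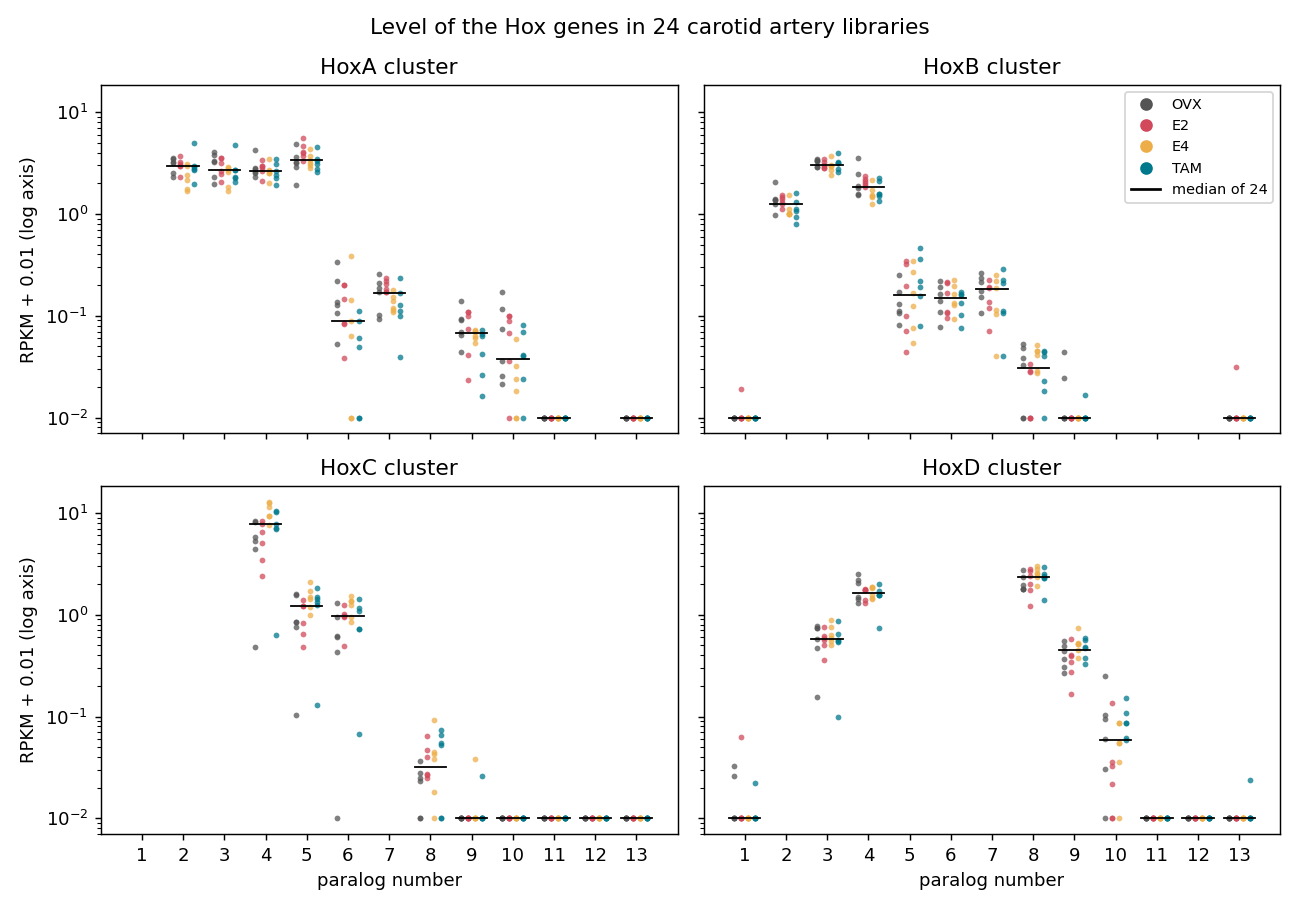
Level of 38 of the 39 Hox genes in 24 carotid artery libraries, as RPKM plus 0.01 on a log axis, against the paralog number, with 1 panel per cluster. Points are libraries coloured by group and bars are medians of 24; Hoxa2 to Hoxa5 have means between 2.73 and 3.54 RPKM, Hoxd8 at 2.26 RPKM stands out beyond number 5, and the genes above number 10 lie at the bottom of the axis apart from 1 library each of Hoxb13 and Hoxd13.

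The largest sum of a paralog group was that of group 4, the single number with a gene detected in all 24 libraries in each of the 4 clusters. Hoxa4, Hoxb4, Hoxc4 and Hoxd4 together reached 13.4 ± 2.96 RPKM (SD, n = 24), ahead of group 3 with 6.45 ± 0.879 and group 5 with 4.87 ± 0.845. Group 4 sums 4 genes and groups 3 and 5 sum 3 genes each. Hoxc4 alone had a mean of 7.16 RPKM, and the rank of group 4 rests on it. In TAM C35, where Hoxc4 was at 0.623 RPKM, group 4 was at 7.02 RPKM, below group 3 at 8.73. Hoxb1, which gives a segment of the hindbrain its identity, gave 1 read and Hoxd1 9 reads over all 24 libraries, so that a low number alone did not go with a high level. Group 8 reached 2.30 ± 0.502 RPKM through 1 gene, Hoxd8, while Hoxb8 was at 0.0205 and Hoxc8 at 0.0264 RPKM.

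In the HoxA cluster, on the minus strand at chr6:52155590-52260880, the levels formed a plateau followed by a drop. Hoxa2 was at 2.85 ± 0.699 RPKM, Hoxa3 at 2.80 ± 0.743, Hoxa4 at 2.73 ± 0.521 and Hoxa5 at 3.54 ± 0.820 (SD, n = 24). The neighbours Hoxa2, Hoxa3 and Hoxa4 differed by less than their SD. Hoxa2 gives the second pharyngeal arch its identity, Hoxa3 is needed for derivatives of the third arch, and Hoxa5 acts in lung and neck development. Past Hoxa5 the mean fell to 0.105 RPKM at Hoxa6, 0.148 at Hoxa7, 0.0579 at Hoxa9 and 0.0428 at Hoxa10. Hoxa6, the immediate neighbour of Hoxa5, was above 3 counts in 11 libraries and had no read in 4.

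The HoxB cluster, on the plus strand at chr11:96194316-96368256, showed its plateau at numbers 2 to 4. Hoxb3, which has been tied to the angiogenic state of endothelium, was highest at 3.08 ± 0.352 RPKM, followed by Hoxb4 at 1.88 ± 0.487 and Hoxb2 at 1.24 ± 0.277. Hoxb4 is best known for the expansion of blood stem cells. Hoxb5, Hoxb6 and Hoxb7 lay between 0.138 and 0.175 RPKM, and Hoxb8 at 0.0205. Hoxb9 gave 7 reads in all and Hoxb13, at the far end, gave 2.

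In the HoxC cluster, on the plus strand at chr15:102921103-103036852, levels stepped down from the first gene. Hoxc4 was the highest Hox gene of the artery at 7.16 ± 3.33 RPKM, above 79.3% of the 41536 genes with a count, as a mean over all 24 libraries. In OVX C5 and TAM C35 it was at 0.471 and 0.623 RPKM, below Hoxa5 at 4.87 and 4.57. Hoxc5 followed at 1.15 ± 0.505 and Hoxc6 at 0.910 ± 0.404, and Hoxc8 was at 0.0264. Hoxc4 to Hoxc6 mark cervical and upper thoracic segments, motor neurons of the neck and forelimb included. Hoxc9 gave 5 reads over all libraries, and Hoxc10 to Hoxc13 none.

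The HoxD cluster, on the plus strand at chr2:74668310-74765142, was the one with its highest member past number 5. Hoxd8 was highest at 2.26 ± 0.488 RPKM, then Hoxd4 at 1.65 ± 0.355, Hoxd3 at 0.576 ± 0.190 and Hoxd9 at 0.428 ± 0.127. Hoxd10 was at 0.0599 RPKM and above 3 counts in 13 libraries. Hoxd11 and Hoxd12 had no read and Hoxd13, which patterns the digits, had 2 reads in 1 library. The order of paralog numbers followed the position of the genes' 3′ ends in all 4 clusters.

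Neighbouring genes share reads, and this limits some of these levels. Exons of 16 members overlap those of another annotated gene, most at Hoxd3 (62.8% of its exon bases, Hoxd4 among the partners), Hoxb3 (52.9%) and Hoxd4 (52.3%). Fractions appear in the deposited values of 12 members, and members whose only overlap is with an antisense gene, such as Hoxb2 and Hoxb3 with Hoxb3os, are among them. Hoxb2 had fractional values in 17 libraries and Hoxb3 in 12, whereas members without overlap, Hoxa5, Hoxb4, Hoxc4 and Hoxd8 among them, had none. Reads were thus split between the strands, and the part of an antisense transcript in the level of Hoxa3, Hoxb3, Hoxd3 or Hoxd4 was not tested.

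Promoter windows were available for 22 of the 39 members in RefSeq (build GRCm38.p6), as 24 stretches of 300 bases from 250 before to 50 after a start. They were richer in bases G and C than the 32851 windows of all genes, with medians of 57.7% and 52.7%, and held a median of 14.5 CG steps against 7. The half-site AGGTCA, the core that estrogen and retinoic acid receptors share, was found on either strand in 7 of the 24 windows (29.2%), against 16.3% of all windows. The palindrome GGTCANNNTGACC of the estrogen response element was in none of the 24, and in 0.0700% of all windows. The direct repeat AGGTCANNNNNAGGTCA of retinoic acid receptors, which contains the half-site, was also in none, against 0.00913% of all. TATAAA was in 4 windows (16.7%, against 13.6%). The windows of Hoxc4, Hoxd3, Hoxa5 and Hoxb4 are shown because these genes went in opposite directions in the libraries that stood apart and each holds the half-site, in capitals as AGGTCA or as its complement TGACCT. Each line reads 5′ to 3′ on the strand of the gene.
Hoxc4, chr15:103034145-103034444, plus strand: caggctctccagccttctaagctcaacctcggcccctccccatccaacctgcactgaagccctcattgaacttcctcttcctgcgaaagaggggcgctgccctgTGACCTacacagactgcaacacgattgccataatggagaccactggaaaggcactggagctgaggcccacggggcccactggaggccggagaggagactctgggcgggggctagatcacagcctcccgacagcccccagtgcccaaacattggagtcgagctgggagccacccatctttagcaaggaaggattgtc
Hoxd3, chr2:74711743-74712042, plus strand: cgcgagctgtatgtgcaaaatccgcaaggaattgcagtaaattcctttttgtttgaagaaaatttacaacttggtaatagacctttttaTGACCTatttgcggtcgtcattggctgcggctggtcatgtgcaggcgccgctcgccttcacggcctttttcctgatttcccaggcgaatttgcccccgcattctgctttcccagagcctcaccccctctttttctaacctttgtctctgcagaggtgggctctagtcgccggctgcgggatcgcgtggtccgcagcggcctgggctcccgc
Hoxa5, chr6:52204538-52204837, minus strand: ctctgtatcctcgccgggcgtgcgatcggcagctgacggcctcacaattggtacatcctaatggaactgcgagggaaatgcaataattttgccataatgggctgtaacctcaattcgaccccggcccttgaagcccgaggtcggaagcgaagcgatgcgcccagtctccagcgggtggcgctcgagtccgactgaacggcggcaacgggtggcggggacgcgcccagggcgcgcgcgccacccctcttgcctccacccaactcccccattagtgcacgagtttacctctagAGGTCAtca
Hoxb4, chr11:96318017-96318316, plus strand: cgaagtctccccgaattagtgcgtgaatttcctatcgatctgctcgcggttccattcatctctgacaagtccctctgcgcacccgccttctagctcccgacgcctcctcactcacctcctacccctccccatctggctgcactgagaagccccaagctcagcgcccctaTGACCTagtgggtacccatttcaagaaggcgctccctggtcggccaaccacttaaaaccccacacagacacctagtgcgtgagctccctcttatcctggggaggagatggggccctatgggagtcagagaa
A match of letters is a description and not a binding site.

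The treatments were then compared. The question was whether estradiol, estetrol or tamoxifen went with a change of the Hox code. A total of 21 members passed the filter on low counts and were tested with edgeR's quasi-likelihood test and Benjamini-Hochberg adjustment over 25033 genes, while 18 were too low. At an adjusted p under 0.05, 0 of the 21 members were called in any of the 6 contrasts, with no fold limit. Over all genes the same rule called 4.16% in E2 against OVX, 22% in E4 against OVX, 2.21% in TAM against OVX, 12.5% in E4 against E2, 6.44% in TAM against E2 and 0.34% in TAM against E4. With an absolute log2 fold change over 1 in addition, 1.27%, 2.51%, 0.308%, 2.47%, 1.65% and 0.196% of all genes were called in the same order of contrasts, and again 0 members. DESeq2, which gave an adjusted p to between 17 and 22 members, called 0 in the 6 contrasts too. The comparisons with OVX share their 6 control libraries, and in whole tissue fewer cells of a type and less RNA per cell cannot be told apart.

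At an unadjusted p under 0.05, edgeR listed 0 members in E2 against OVX (16% of all genes), 2 in E4 against OVX (36.3%), 1 in TAM against OVX (21%), 3 in E4 against E2 (30.2%), 1 in TAM against E2 (21.2%) and 1 in TAM against E4 (9.12%). The share of the 21 members was below that of all genes in each of the 6 contrasts. DESeq2 listed 1, 2, 2, 2, 0 and 1 in the same order. The smallest adjusted p belonged to Hoxa10, named here after its values were seen and known from the uterus as a target of ovarian steroids, with a log2 difference of -2.19 ± 0.85 (SE, n = 6 against 6, adjusted p = 0.0657 by edgeR) in E4 against OVX. Without OVX C24, E2 C9 or E4 C38 the adjusted p was 0.0442, 0.0464 or 0.0428, and among the libraries with animal numbers over 20 the difference was 0.50 (adjusted p = 0.878). The counts of Hoxa10 were 2 to 28 with a median of 9 in OVX and 0 to 14 with a median of 10 in E2. They were 0, 0, 1, 2, 3 and 4 in E4 and 0, 2, 5, 6, 9 and 10 in TAM, and the groups overlapped.

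Most intervals were narrow enough to bound a change. The 95% interval of the log2 difference lay within -1 and 1, that is within 2-fold, for 16 of the 21 members in E2 against OVX, for 14 in E4 against OVX and for 13 in TAM against OVX (the plot of fitted differences). The narrowest was that of Hoxb3, with -0.07 (-0.28 to 0.13) for E2, -0.12 (-0.32 to 0.08) for E4 and -0.04 (-0.24 to 0.17) for TAM. The members of the HoxC cluster were among the widest. For Hoxc4 the difference was 0.05 (-0.96 to 1.05) with E2, 0.96 (-0.05 to 1.96) with E4 and 0.42 (-0.59 to 1.42) with TAM. All intervals given here include OVX C5 and TAM C35. Without the pair the difference of Hoxc4 was -0.20 (edgeR adjusted p = 0.706) with E2, 0.73 (edgeR adjusted p = 0.0408) with E4 and 0.42 (edgeR adjusted p = 0.339) with TAM. With the ganglion list as a covariate the difference with E4 was 0.10 (edgeR adjusted p = 0.610). The median absolute log2 difference of the 21 members was 0.10, 0.36 and 0.24 in the E2, E4 and TAM comparisons with OVX, beside 0.13, 0.25 and 0.18 over all genes.

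**Figure D2:**
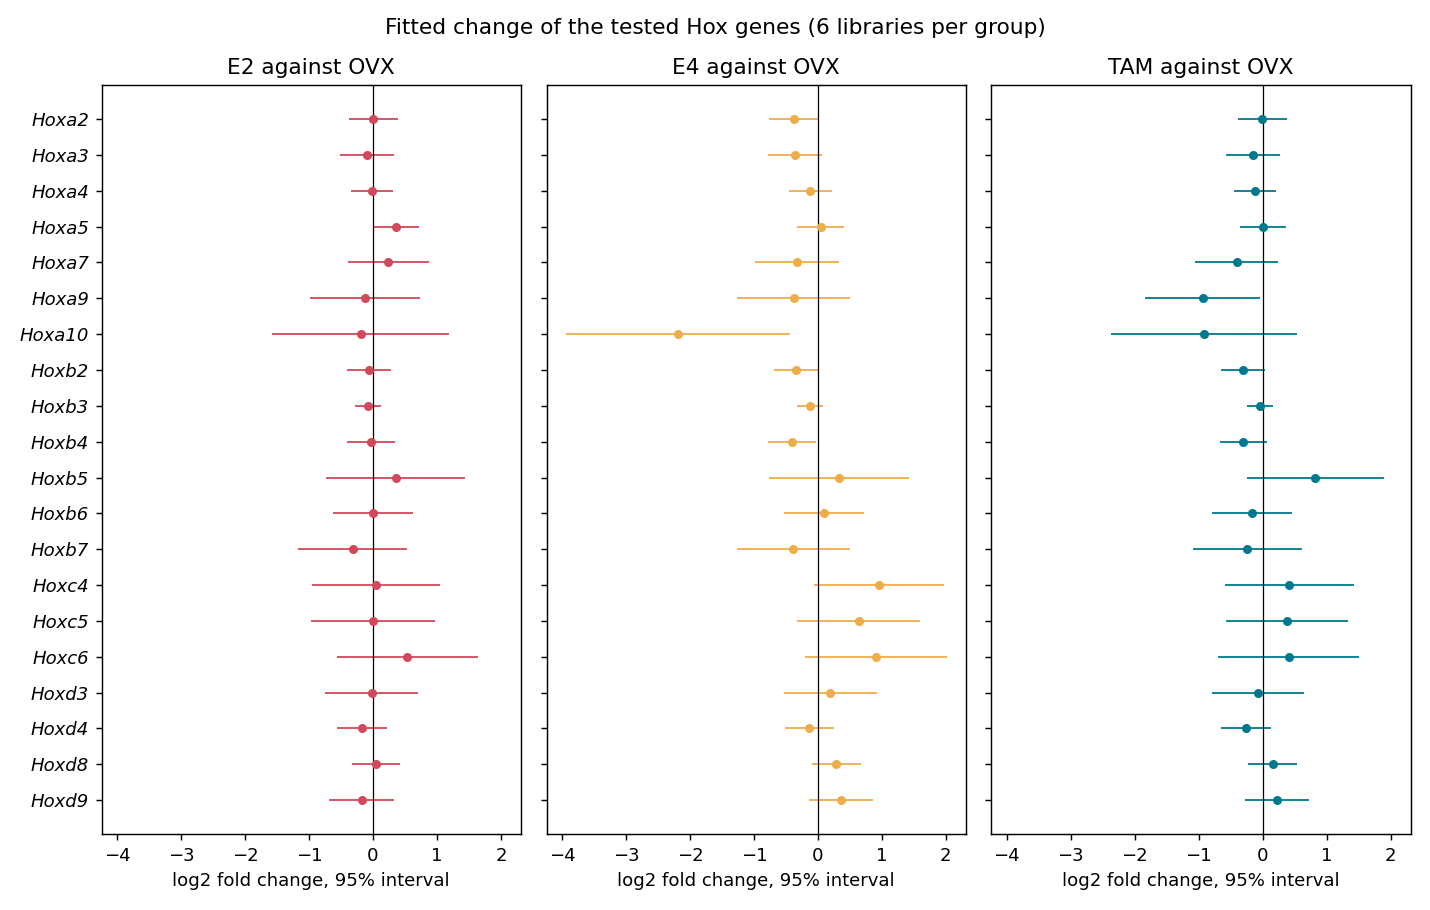
Fitted log2 fold change against OVX of 20 of the 21 tested Hox genes (edgeR, 6 libraries per group), points with 95% intervals, 1 panel per treatment on the same axis. No member is past an adjusted p of 0.05; Hoxb3 has the narrowest intervals, while Hoxa10 and the HoxC genes have wide ones, and Hoxa10 lies lowest at -2.19 with E4.

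The 8 members described next are the 2 highest of each cluster. Hoxa5 ran from 1.90 through a median of 3.21 to 4.87 RPKM in OVX, from 3.34 through 4.02 to 5.57 in E2, from 2.80 through 3.25 to 4.29 in E4 and from 2.56 through 3.22 to 4.57 in TAM. The E2 libraries had the highest median, and the 4 groups overlapped. The sum of 6 macrophage markers was also higher in E2, at 471 to 633 CPM, than in any library of OVX (up to 460), E4 (up to 366) or TAM (up to 319), and its part in the level of Hoxa5 was not tested. Its log2 difference in E2 against OVX was 0.36 ± 0.18 (edgeR adjusted p = 0.315). Without OVX C5, the highest of its group at 4.87 RPKM, and TAM C35 the difference was 0.51 (adjusted p = 0.0429), and with the ganglion list as a covariate it was 0.50 (adjusted p = 0.0336). The call of Hoxa5 thus turned on leaving out this pair or on adding the covariate. Without the pair Hoxa5 and Hoxa7 were also lower in TAM than in E2, by log2 differences of -0.47 (adjusted p = 0.0436) and -0.90 (adjusted p = 0.0459). With the covariate the differences were -0.39 (adjusted p = 0.0734) and -0.70 (adjusted p = 0.0968), and with the covariate and without the pair -0.52 (adjusted p = 0.118) and -0.99 (adjusted p = 0.144). Hoxa2 had 2.28, 3.19 and 3.52 RPKM as lowest, median and highest in OVX, 2.31, 3.03 and 3.70 in E2, 1.67, 2.27 and 3.07 in E4 and 1.96, 2.80 and 4.92 in TAM. The E4 libraries lay lower than the rest in their median and overlapped every other group. The log2 difference in E4 against OVX was -0.38 (95% interval -0.76 to 0.01, adjusted p = 0.143), and with all libraries thinned to an equal total it was -0.51 (adjusted p = 0.0355). With the ganglion covariate it was -0.18 (adjusted p = 0.472), and with the covariate and without the pair -0.11 (adjusted p = 0.769).

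Hoxb3 was the steadiest member, with 2.87 to 3.44 RPKM in OVX (median 3.30), 2.80 to 3.44 in E2 (median 2.99), 2.43 to 3.68 in E4 (median 2.96) and 2.57 to 3.92 in TAM (median 3.13). The ranges lay almost on top of each other. Hoxb4 had 1.52 to 3.54 RPKM in OVX (median 1.83), 1.84 to 2.37 in E2 (median 2.05), 1.25 to 2.13 in E4 (median 1.52) and 1.34 to 2.23 in TAM (median 1.57). The highest OVX value was that of OVX C5. For Hoxb4 the log2 difference was -0.40 ± 0.18 in E4 against OVX (adjusted p = 0.109) and -0.37 ± 0.18 in E4 against E2 (adjusted p = 0.165). Without OVX C5 and TAM C35 the difference from OVX was -0.18 (adjusted p = 0.351), and with the ganglion covariate it was -0.12 (adjusted p = 0.591). The difference from E2 had an adjusted p of 0.0496 in a fit of the E4 and E2 libraries alone, of 0.0498 without the pair and of 0.182 with the covariate, where it was -0.26.

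Hoxc4 had the widest spread. It ran from 0.471 through a median of 5.55 to 8.24 RPKM in OVX, from 2.40 through 5.73 to 8.40 in E2, from 7.60 through 10.3 to 12.9 in E4 and from 0.623 through 7.46 to 10.5 in TAM. The E4 libraries were the highest as a group, and 3 of the 6 lay within the range of TAM. The difference in E4 against E2 was 0.91 ± 0.49 on the log2 scale (adjusted p = 0.212). Without OVX C5 and TAM C35 Hoxc4 was 0.92 higher in E4 than in E2 (adjusted p = 0.0102) and 0.73 higher than in OVX (adjusted p = 0.0408). With the ganglion covariate the log2 difference in E4 against OVX was 0.10 (adjusted p = 0.610) and that in E4 against E2 was 0.35 (adjusted p = 0.0439), and with the covariate and without both libraries they were -0.047 (adjusted p = 0.802) and 0.13 (adjusted p = 0.594). The E4 group also had the highest ganglion marker sum, with 2577, 3719 and 4402 CPM as lowest, median and highest, against 1129, 2372 and 3119 in E2 and, OVX C5 aside, 1419 to 2987 in OVX and, TAM C35 aside, 2844 to 4037 in TAM.

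Hoxc5 went with Hoxc4. Its values were 0.0925 to 1.60 RPKM in OVX (median 0.834), 0.467 to 1.37 in E2 (median 1.01), 0.977 to 2.09 in E4 (median 1.46) and 0.120 to 1.81 in TAM (median 1.37). The lowest values in OVX and TAM were again those of OVX C5 and TAM C35. In the HoxD cluster, Hoxd8 had 1.76 to 2.77 RPKM in OVX (median 1.88), 1.21 to 2.81 in E2 (median 2.20), 1.90 to 2.97 in E4 (median 2.55) and 1.37 to 2.95 in TAM (median 2.36). Hoxd4 had 1.28 to 2.51 RPKM in OVX (median 1.77), 1.30 to 1.78 in E2 (median 1.74), 1.41 to 1.88 in E4 (median 1.68) and 0.724 to 2.01 in TAM (median 1.56). All 4 groups overlapped for both genes. The log2 difference of Hoxd8 in E4 against OVX was 0.29 (-0.09 to 0.67) and that of Hoxd4 in TAM against OVX was -0.26 (-0.65 to 0.13), and neither was called.

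The sums over each cluster gave the same count. Of 24 exact two-sided permutation tests on the log2 summed RPKM (4 clusters in 6 contrasts, 6 libraries against 6, smallest possible p = 0.00216), 0 had an adjusted p under 0.05 after Benjamini-Hochberg adjustment. Without E4 C39 this number was 4: lower HoxA (-0.32, adjusted p = 0.0346) and HoxB (-0.26, adjusted p = 0.0346) and higher HoxC (0.996, adjusted exact permutation p = 0.039) in E4 against E2, and lower HoxB in E4 against OVX (-0.31, adjusted p = 0.0346). These tests kept OVX C5, the highest of OVX in its HoxB sum at 9.21 RPKM. With E4 C39 kept and OVX C5 and TAM C35 left out, HoxB in E4 against OVX was -0.16 (exact permutation p = 0.162, adjusted 0.325). The HoxC sum was 13.2 ± 2.50 RPKM in E4, 7.49 ± 2.91 in E2, 6.99 ± 3.84 in OVX and 9.32 ± 4.59 in TAM (SD, n = 6). The log2 difference was 0.90 in E4 against E2 (exact p = 0.00649, adjusted 0.0779) and 1.34 in E4 against OVX (exact p = 0.0108, adjusted 0.0866), the latter 0.70 without OVX C5 and TAM C35 (exact p = 0.0173, adjusted 0.0831). The HoxA sum went the other way, with 12.1 ± 1.93 RPKM in E4 and 14.5 ± 0.669 in E2, a log2 difference of -0.28 (exact p = 0.00433, adjusted 0.0779). The fibroblast marker sum was also lower in E4, with 2538, 3215 and 4128 CPM as lowest, median and highest, against 3796, 4364 and 5902 in E2 and a median of 4199 in OVX, and its part in the HoxA sum was not tested. The HoxB sum lay between 6.13 and 7.20 RPKM and the HoxD sum between 4.70 and 5.39 in the means of the 4 groups.

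Some Hox genes differed more between libraries of a group than between the groups' medians. In both OVX C5 and TAM C35, Hoxc4, Hoxc5, Hoxc6 and Hoxd3 were the lowest of their 6 libraries and more than 4 times below the median of the other 5 (the plot of the pair of libraries). This held for 4 of the 21 tested members, beside 5.8% of all genes. Hoxc4 was at 0.471 RPKM in OVX C5, against 4.40 to 8.24 in the other OVX libraries, and at 0.623 in TAM C35, against 6.95 to 10.5 in the other TAM libraries. The ratio to the median of the others was 0.0814 and 0.0802. Hoxc6 had no read in OVX C5 and 6 reads in TAM C35. The HoxD genes were not equally low. Hoxd3 was at 0.202 and 0.159 of the median of the others, Hoxd8 at 0.908 and 0.567, and Hoxd9 at 1.52 and 0.674, and Hoxd4 was the lowest of its group in both, at 1.28 and 0.724 RPKM.

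The genes of the HoxA cluster did the opposite. In both libraries 8 members were the highest of their group, beside 14.2% of all genes, and 5 were the lowest, beside 24.5%. Among them were Hoxa2, Hoxa3, Hoxa4, Hoxa5, Hoxa7, Hoxb2 and Hoxb4. Hoxa4 was at 1.63 and 1.44 times the median of the others, Hoxa5 at 1.54 and 1.47, and Hoxb4 at 1.97 and 1.42. The HoxA cluster made up 58.5% of the Hox RPKM in OVX C5 and 63.1% in TAM C35, against 26.1% to 51.5% in the other 22 libraries, while HoxC made up 1.70% and 2.51%, against 12.2% to 41.3%. The HoxC sum was 0.563 and 0.801 RPKM in the pair, below the 3.37 to 15.9 of the other libraries. Both libraries also had the lowest ganglion marker sums and the lowest thyroid and parathyroid sums, at 9.91 and 4.87 CPM against at least 16.9 in the 22. The sum of 6 Schwann and satellite glia markers was within the range of the 22 in both, at 1253 and 2825 CPM, and the skeletal muscle sum of TAM C35, at 255, was above the 225 that the 22 reached. In TAM C35 the smooth muscle sum, at 8341 CPM, was above the 2328 to 4868 of the 22, whereas in OVX C5, at 4051, it lay within that range. The fibroblast sum was the highest of its group in both, at 5725 CPM in OVX C5 (others up to 4969) and 5375 in TAM C35 (others up to 4228), as were the endothelial sum, at 780 (others up to 649) and 1118 (others up to 857), and the macrophage sum, at 460 (others up to 309) and 319 (others up to 316). The adipocyte sum of OVX C5, at 5848 CPM, was above the 4539 that the 22 reached. The part of these cell types in the HoxA levels was not tested.

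**Figure D3:**
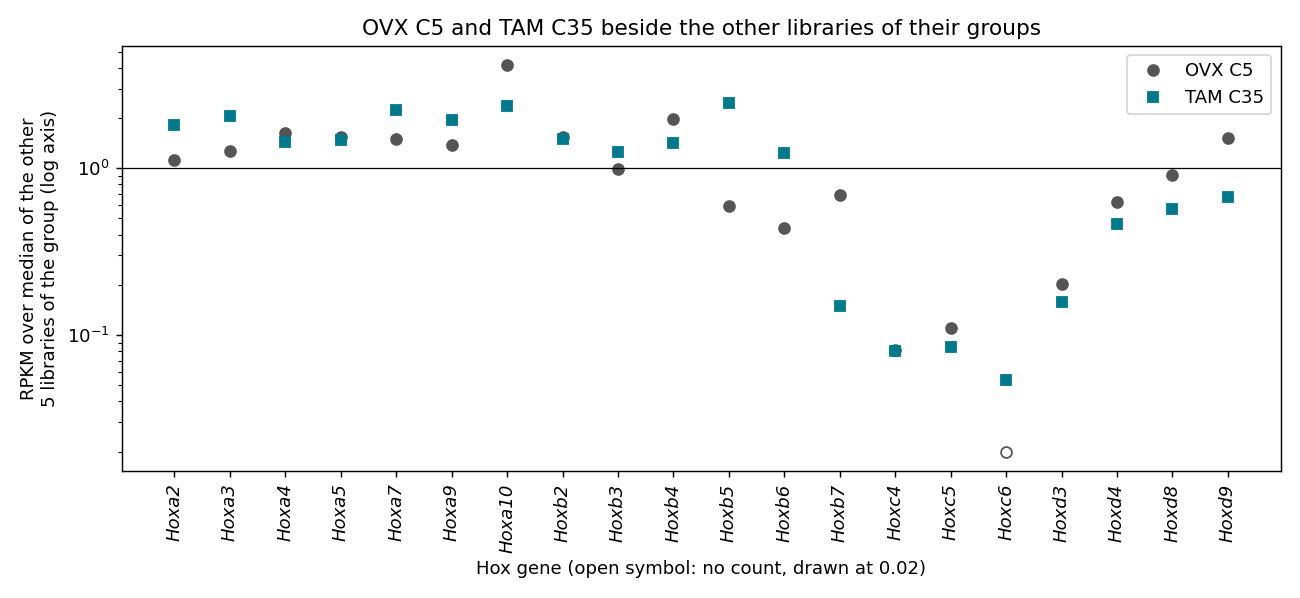
RPKM of 20 of the 21 tested Hox genes in OVX C5 (circles) and TAM C35 (squares), divided by the median of the other 5 libraries of the same group, on a log axis with a line at 1. Hoxc4, Hoxc5, Hoxc6 and Hoxd3 lie more than 4 times below 1 in both libraries, the 7 HoxA genes shown lie above 1, and the open symbol marks Hoxc6 in OVX C5, which had no read.

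The same split was present across the other 22 libraries. The HoxC sum followed the ganglion marker sum closely, both on a log2 scale, with Pearson's r = 0.974 and Spearman's rho = 0.968 (permutation p = 1e-05 for both, the smallest that 100000 permutations can give, adjusted 4e-05 over 4 clusters). Without the 2 libraries farthest from the median of the ganglion sum r was 0.957, and on deviations from the group means it was 0.961. Animal numbers fall in a first series, up to 20, and a second, over 20, which the labels do not call batches. Within them r was 0.981 (n = 12) and 0.954 (n = 10). For the HoxD sum r was 0.738 and rho 0.743 (permutation p = 0.00012 and 0.00011, adjusted 0.00024 and 0.00022), 0.717 and 0.879 within the series, 0.746 on deviations, and 0.460 without the 2 farthest libraries. The HoxA sum was related the other way, with r = -0.582 and rho = -0.596 (permutation p = 0.00535 and 0.00452, adjusted 0.00713 and 0.00452), -0.596 without the 2 farthest, -0.337 on deviations, and -0.686 and -0.286 within the series. The HoxB sum had r = -0.443 and rho = -0.634 (permutation p = 0.04 and 0.00181, adjusted 0.04 and 0.00241), -0.570 without the 2 farthest and -0.128 on deviations, with -0.637 and -0.654 within the series. On deviations from the group means neither HoxA (permutation p = 0.125, and 0.069 for rho) nor HoxB (permutation p = 0.572, and 0.754 for rho) passed, and in the second series HoxA had a permutation p of 0.397 with rho = -0.067. All 4 sums share libraries, scaling and total with the marker sum.

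**Figure D4:**
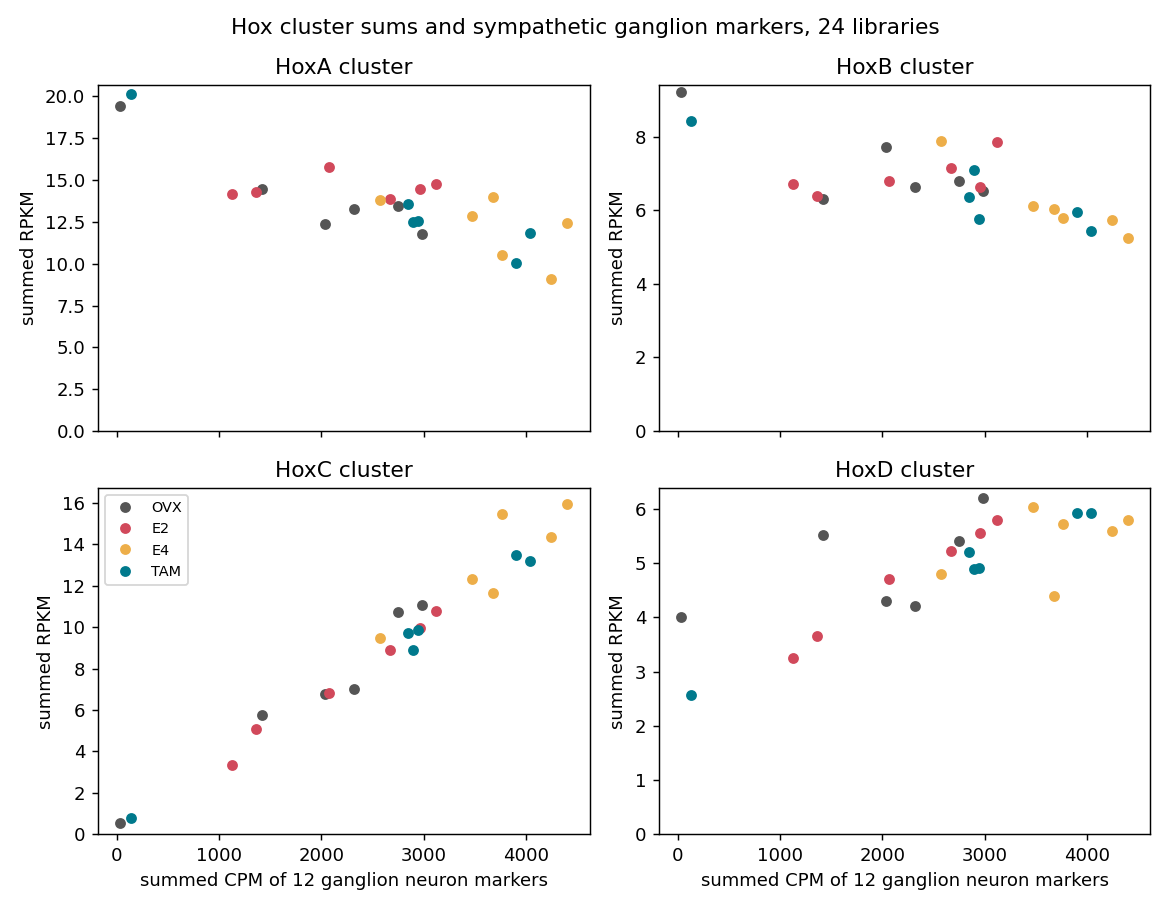
Summed RPKM of each Hox cluster against the summed CPM of 12 sympathetic ganglion neuron markers in 24 libraries coloured by group, 1 panel per cluster, linear axes with the level axis starting at 0. The HoxC sum climbs from 0.563 to 15.9 RPKM with the marker sum, the pair of libraries at the far left are OVX C5 and TAM C35, and the HoxA sum is highest in that pair.

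Gene by gene, 15 members had at least 10 counts in each of the 22 libraries. With adjustment over these 15 relations by permutation, 6 had a positive Pearson correlation with the ganglion list past 0.05, 4 a negative one and 5 did not pass. Of all 21020 genes with as many counts, 25.3% had an r at least as high as the lowest of these 6, and 25.2% an r at least as far below 0 as the weakest of these 4. The positive ones were Hoxc4 (r = 0.973, rho = 0.959, permutation p = 1e-05 for both, adjusted 7.5e-05), Hoxc5 (r = 0.919, rho = 0.831, permutation p = 1e-05 for both, adjusted 7.5e-05), Hoxc6, Hoxd3, Hoxd8 and Hoxd9. Hoxd8, which was less than 4 times below the others in OVX C5 and TAM C35, had r = 0.832 and rho = 0.778 (permutation p = 2e-05 and 7e-05, adjusted 0.0001 and 0.00035), and 0.699 without the 2 farthest libraries. On deviations from the group means r was 0.966 for Hoxc4, 0.897 for Hoxc5, 0.657 for Hoxc6, 0.540 for Hoxd3, 0.818 for Hoxd8 and 0.524 for Hoxd9. Without the 2 farthest libraries r was 0.247 for Hoxd3, so that its relation rests on them, and 0.437 for Hoxd9, down from 0.702. Within the second series r for Hoxd9 was 0.390. The negative ones were Hoxa2, Hoxa3, Hoxb2 and Hoxb4, with r from -0.655 to -0.474 and, on deviations, from -0.495 to -0.174. For Hoxa5 r was -0.126 (permutation p = 0.573). The part of attached nerve tissue in the level of any Hox gene was not tested beyond these values.

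Among the 15 members with at least 10 counts in each of the 22 libraries, the spread was widest in HoxC. Over the 22 libraries the coefficient of variation was 10.3% for Hoxb3 and 15.1% for Hoxa4, and 35.5% for Hoxc4, 32.7% for Hoxc5 and 31.6% for Hoxc6. Counting error alone gives 3.47% at the mean of 831 counts of Hoxc4 and 4.09% at the 599 of Hoxb3. The highest of the 22 libraries exceeded the lowest 5.38 times for Hoxc4 and 1.51 times for Hoxb3.

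The partners and regulators of the Hox proteins were measured beside them. Hox proteins bind DNA with TALE cofactors, and all 9 listed genes of the Pbx, Meis and Pknox families were above 3 counts in every library, from 0.459 ± 0.0925 RPKM for Pbx4 to 13.6 ± 1.43 for Pbx2 (SD, n = 24). Among 16 tested genes of the retinoic acid pathway, Aldh1a2, the main enzyme that makes retinoic acid, was called higher in E2 against OVX by 3.03 ± 0.24 (adjusted p = 2.15e-08), from 2.82 to 23.0 CPM, and in E4 against OVX by 1.29 ± 0.24 (adjusted p = 0.00107). It was the single called gene of the list with E2, where 4.16% of all genes were called, and no gene of the list was called with TAM, where 2.21% were. With E4 the receptor gene Rxra was also higher (0.65) and Crabp2 and Dhrs3, which bind or reduce retinoids, were lower (-0.77 and -0.41). Of 25 Polycomb and trithorax regulators, E2 went with 0 higher and 1 lower (Cbx7, -0.38), E4 with 5 higher and 1 lower (Eed, -0.34), and TAM with 0, none past a log2 fold change of 1. The 6 called with E4 stand beside the 22% called among all genes in that contrast.

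Other genes lie within the clusters, most of them noncoding. Of 46 such genes 18 were tested, and 5 were called lower in E4 against OVX, where 22% of all genes were called in either direction, while none was called in the comparisons of E2 or TAM with OVX. All 5 lie in the HoxA cluster, which also holds most of the listed genes that were above 3 counts in every library. The antisense gene 5730596B20Rik fell by 1.03 (adjusted p = 0.00603) and Hoxaas2 fell by 0.57 (adjusted p = 0.0303) on the log2 scale. Both overlap exons of Hoxa3, whose own log2 difference was -0.36 (-0.78 to 0.06, adjusted p = 0.208). The other 3, Gm27477, Gm27861 and Gm29430, had differences of -0.70, -0.96 and -0.66. Gm27477 and Gm27861 overlap no exon of a Hox member. These calls include OVX C5, and fits without it or with the ganglion covariate are not given for these genes. In OVX C5 Gm27477 was at 18.7 RPKM, above the 14.1 that the 22 other libraries reached. 5730596B20Rik, Hoxaas2, Gm27861 and Gm29430 were within the range of the 22 there. Since reads of both strands were shared, the values of 5730596B20Rik, Hoxaas2 and Gm29430 are not separate from those of the Hox genes they overlap. Of 4 tested homeobox genes outside the clusters, Meox2 and Prrx2 were called lower in E4 against OVX, where 22% of all genes were called in either direction. Their log2 differences were -0.50 (edgeR adjusted p = 0.00633) and -0.86 (edgeR adjusted p = 0.0123). The part of the fibroblast marker sum, which was also lower in E4, in these values was not tested.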

How the data were processed

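Carotid RNA was sequenced in 24 libraries from poly(A) RNA with a kit that keeps strand. The deposited values are estimated counts: the authors trimmed reads with Trim Galore, aligned them with Bowtie2 to mm10 and counted genes with featureCounts, with fractions for shared reads; per the labels bcl2fastq 2.17 made the reads. The strand setting of the counting is not given in the sources used here. Here the values were rounded to whole numbers and tested with edgeR 4.0.16 (R 4.3.3; TMM, filterByExpr, quasi-likelihood test, Benjamini-Hochberg adjustment over 25033 genes), all 24 libraries in 1 fit and 6 contrasts. DESeq2 1.42.0 was an alternative, and cluster sums were compared by exact permutation (SciPy 1.17.1). RPKM used TMM-scaled CPM and GENCODE merged exon lengths. The test was checked on simulated data. With 3 counts as the floor, a median total of 45156106 sets precision, and counting intervals cover counting error only. Each p-value sets a difference or relation against the spread between the libraries in its test, which were all or some of these 24.

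The members and lists (TALE cofactors, retinoic acid pathway, Polycomb and trithorax regulators, other homeobox genes, other cluster genes, and 11 marker lists) were chosen with earlier results of these data known. Named genes were the 2 members per cluster with the highest mean RPKM; others named were chosen after their values were seen. Promoter windows came from RefSeq. Other marker lists (Schwann and satellite glia, B cell, macrophage, adipocyte, skeletal muscle) ranged over 497 to 3615, 3.00 to 32.6, 200 to 633, 2248 to 5848 and 55.9 to 255 summed CPM over the 24 libraries. Some genes are not reported here by name or drawn in the plots of single genes.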

Additional observations from a re-analysis of the deposited data

Results flagged for a closer look

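In groups of 6 libraries, a lowest or highest value was singled out when its gap to the next library exceeded the 95% critical value of Dixon's ratio, which chance passes in about 1 of 20 groups. Of 48 group values 9 did, 8 of them in OVX C5 or TAM C35. In TAM C35, Hoxa2 was at 4.915 RPKM (other TAM libraries 1.958 to 2.974), Hoxc4 at 0.6235 (6.955 to 10.46), Hoxc5 at 0.1202 (1.227 to 1.811) and Hoxd4 at 0.7241 (1.557 to 2.008). In the same library the HoxA sum was 20.12 RPKM (10.06 to 13.58), the HoxC sum 0.8015 (8.904 to 13.5) and the HoxD sum 2.561 (4.884 to 5.922). In OVX C5 the HoxA sum was 19.39 RPKM (11.77 to 14.48). In E4 C39, which had the lowest ganglion marker sum of its group, the HoxB sum was 7.888 RPKM (5.243 to 6.116). The part of the ganglion content in these values was not tested.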

How the results depend on the processing

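No paired analysis was possible because the groups share no animal numbers. Of 468 recomputed fold changes of 13 results for single genes, 463 kept their direction and 5 reversed. Each gene was counted only in its contrast with the smallest edgeR p. Hoxa10 in E4 against OVX was 0.50 in the second number series alone. With the ganglion covariate Hoxc5 in E4 against OVX was -0.16, and with the covariate and without OVX C5 and TAM C35, chosen after seeing the data, Hoxc4, Hoxc5 and Hoxd8 were -0.047, -0.29 and -0.16. Outside this count, Hoxc4 in TAM against OVX went from 0.42 to -0.11 with the covariate, and to -0.17 with the covariate and without the pair. In E2 against OVX Hoxc4 went from 0.05 to -0.20 without the pair and to -0.25 with the covariate. The causes were not tested. The count of called members, 0 in each contrast, became 1 in E2 against OVX without OVX C5 and TAM C35, with the covariate, and with both, where 6.62%, 9.04% and 11.4% of all genes were called. In E4 against OVX it was 1 without that pair and 1 with thinned counts (22.2% and 21.7% of all genes), and 0 to 1 when single libraries were left out, with or without the fold limit. In E4 against E2 it was 2 in a fit of these groups alone, 2 without the pair, 1 with the covariate (22.5%, 25.7% and 16% of all genes) and 0 to 1 without single libraries. In TAM against E2 it was 2 without the pair (13.2% of all genes). Cluster sums past the threshold numbered 0 to 4 when single libraries were left out, with 4 without E4 C39. DESeq2 and the other alternatives gave 0. Depth limits genes near the floor of 3 counts, Hoxa10 among them.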
